A study of Mus musculus with 6 samples.

Results

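The genes described here are 48 mouse genes for axon guidance and ephrin signalling: 16 semaphorins, 10 plexins and neuropilins, 8 Eph receptors, 5 ephrins, 4 Slit and Robo genes and 5 netrins and netrin receptors. They were chosen by symbol, as the table's entries whose Entrez gene identifier carries one of the listed names, and each of the 48 was found among the 27179 identifiers of the count table. Messenger RNA was sequenced from EpCAM-positive cells (EpCAM is an epithelial surface protein) sorted from embryonic mouse lung at E16.5. Control samples were Shh-Cre;Grhl2f/+, with 1 floxed and 1 intact allele of Grhl2, the gene of the epithelial transcription factor grainyhead-like 2 (n = 3, replicates 1, 3 and 7). Grhl2_cKO samples were Shh-Cre;Grhl2f/-, with 1 floxed and 1 null allele (n = 3, replicates 1, 5 and 10), and both groups held 2 males and 1 female. Shh-Cre, a Cre recombinase under control of the Sonic hedgehog gene, is active in embryonic lung epithelium. It was present in both groups, so control cells in which it acted kept 1 Grhl2 allele and every change below is relative to that state. Whether a sample is 1 embryo or a pool is not stated, and p-values measure only the spread between these samples.

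Guidance cues are secreted or membrane-bound proteins that attract or repel the cell that senses them, and they act in epithelia and vessels as well as on growing axons. Semaphorins signal through plexins, and most secreted class 3 semaphorins need a neuropilin as co-receptor. Eph receptors are tyrosine kinases that meet membrane-anchored ephrins on a neighbouring cell, and both cells can receive a signal, which sorts cells and sets boundaries. Slits act through Robo receptors, and netrins through Dcc, neogenin and the Unc5 receptors. In the embryonic lung, semaphorin and netrin signals are known to shape branching of the epithelial buds.

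Total counts were 13472216 to 17228762 per library. Grhl2 itself was at 149.0, 147.8 and 145.9 CPM (counts scaled to a common library size and for library composition) in the controls and at 105.3, 109.1 and 115.2 CPM in Grhl2_cKO, 74.4% of control (log2 fold change -0.43 ± 0.06 SE, edgeR adjusted p = 0.0026). Counts cover the whole gene whichever part was deleted, so this level does not measure loss of the protein. The 6 epithelial markers summed to 2467 to 2763 CPM in controls and 2115 to 2285 CPM in Grhl2_cKO. Epcam was the 1 of them that passed the test (67.6% of control, edgeR adjusted p = 0.00412). Krt8 (71.8% of control) and Cdh1 (83.0%) were also lower, without overlap of the groups. Krt18 (77.2%), Cldn7 (96.8%) and Nkx2-1 (103.0%) overlapped between groups. Markers of other cells were present in both groups: the 8 mesenchymal markers summed to 909 to 1463 and 879 to 1764 CPM, the 8 endothelial markers to 151 to 224 and 195 to 209 CPM, and none of these 16 passed the test. Heart muscle markers summed to 30.2 to 55.0 CPM in 5 libraries and to 235 CPM in Grhl2_cKO replicate 1. In bulk samples, fewer cells of a type and less RNA per cell cannot be told apart, and guidance genes are expressed by several of these cell types. The cells were sorted by EpCAM, whose transcript differed between the groups, and whether the sort took the same cells in both was not tested.

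Of the 48 genes, 4 passed the test between genotypes (edgeR adjusted p under 0.05): the semaphorin genes Sema4a and Sema3c fell, and the semaphorin gene Sema4g and the netrin receptor gene Unc5b rose. That is 8.33% of the members, against 3.62% of the 14842 genes tested. The 2 members that fell compare with 2.39% of all genes called lower, and the 2 that rose with 1.23% called higher. All 48 passed the filter on low counts, and the lowest count of any member in any library was 31. Values of the groups did not overlap for 14 members (29.2%), 6 lower and 8 higher in Grhl2_cKO, against 18.1% of all genes tested. The log2 fold change was below 0 for 19 members and above 0 for 29, with a median of 0.05 against 0.00 for all genes tested, and the median size was 0.11 against 0.09.

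The promoters of the 4 genes that passed are shown because they are the genes whose transcript level moved, in both directions, when a transcription factor gene was targeted. Each window runs from 250 bases before to 50 bases after a RefSeq transcription start (GRCm38.p6, the mm10 build), 5′ to 3′ on the gene's strand. Sema4a lies at chr3:88461133-88461432 on the minus strand and Sema3c at chr5:17574566-17574865 on the plus strand. Sema4g lies at chr19:44989094-44989393 on the plus strand, from a start that is not the gene's outermost, and Unc5b at chr10:60831532-60831831 on the minus strand. Capitals mark the one match in these windows to AACCGGT, a stretch of the grainyhead recognition motif AACCGGTT, read here on the opposite strand.
Sema4a: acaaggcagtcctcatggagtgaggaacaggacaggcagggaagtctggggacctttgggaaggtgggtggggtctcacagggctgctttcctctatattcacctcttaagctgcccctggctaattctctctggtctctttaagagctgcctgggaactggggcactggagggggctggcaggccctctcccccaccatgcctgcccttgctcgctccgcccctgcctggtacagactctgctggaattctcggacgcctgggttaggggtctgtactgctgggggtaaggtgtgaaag
Sema3c: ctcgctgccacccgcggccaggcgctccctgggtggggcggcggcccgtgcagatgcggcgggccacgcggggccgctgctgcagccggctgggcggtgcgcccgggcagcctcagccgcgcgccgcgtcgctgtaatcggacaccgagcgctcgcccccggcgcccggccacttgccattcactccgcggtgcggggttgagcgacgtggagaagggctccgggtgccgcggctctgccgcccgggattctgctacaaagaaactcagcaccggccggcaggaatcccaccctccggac
Sema4g: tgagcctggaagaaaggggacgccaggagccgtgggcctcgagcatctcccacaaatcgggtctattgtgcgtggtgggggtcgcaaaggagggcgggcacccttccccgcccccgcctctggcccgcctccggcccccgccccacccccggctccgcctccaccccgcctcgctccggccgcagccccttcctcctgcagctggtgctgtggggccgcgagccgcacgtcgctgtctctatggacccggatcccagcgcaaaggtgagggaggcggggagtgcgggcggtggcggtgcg
Unc5b: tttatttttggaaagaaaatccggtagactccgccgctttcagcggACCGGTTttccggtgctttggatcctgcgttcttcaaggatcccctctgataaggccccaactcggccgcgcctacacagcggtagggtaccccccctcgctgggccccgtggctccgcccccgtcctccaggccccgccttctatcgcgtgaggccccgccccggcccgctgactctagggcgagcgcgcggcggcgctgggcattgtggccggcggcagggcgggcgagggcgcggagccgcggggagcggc

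In the Unc5b window the capitals begin 204 bases before the start. The windows were searched on both strands for AACCGGTT, AACCNGTT, AACCGGT and AACCGG, which overlap one another. Of 32851 RefSeq windows of this length, 0.146%, 2.09%, 1.02% and 6.83% held these motifs in that order. RefSeq windows were matched for 42 of the 48 members (55 windows). None of the 55 held AACCGGTT, Sema6d held AACCNGTT, Sema6d and Unc5b held AACCGGT, and Efna1, Nrp1, Sema6d and Unc5b held AACCGG. A match is a description of these letters and not of binding. The printed Sema4a window, at the gene's outermost start, holds 4 CpG dinucleotides at 59.7% GC. RefSeq gives Sema4a windows at 3 further starts, with 5, 14 and 7 CpG dinucleotides at 59.7%, 61.7% and 55.3% GC, and none of the 4 held a motif searched. By comparison, the Sema3c, Sema4g and Unc5b windows hold 42, 30 and 36 CpG dinucleotides at 75.7%, 73.3% and 69.7% GC. The median GC content of all windows was 52.7%.

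Sema4a encodes a transmembrane class 4 semaphorin (chromosome 3, 88435959 to 88461182, mm10). Its level was 8.89, 7.91 and 10.6 CPM in the controls (replicates 1, 3 and 7, the order used throughout) and 3.00, 2.44 and 1.83 CPM in the Grhl2_cKO libraries (replicates 1, 5 and 10). Every Grhl2_cKO library was below every control, and the gap between the groups was larger than the range within either. Sema4a was 26.6% of control (log2 fold change -1.91 ± 0.20 SE, 95% interval -2.36 to -1.46, edgeR adjusted p = 0.000775). This was the largest change among the 48 members. These levels rest on 119, 130 and 164 counts in controls and 50, 38 and 31 in Grhl2_cKO, so Sema4a was a low-level transcript in both groups. The annotation places 73 bases of its exons under the microRNA gene Mir7011 on the same strand.

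Sema3c encodes a secreted class 3 semaphorin (chromosome 5, 17574816 to 17730268). Its level was 101.5, 111.4 and 117.5 CPM in controls and 83.9, 83.3 and 78.0 CPM in Grhl2_cKO. All 3 Grhl2_cKO libraries lay below the lowest control. Sema3c fell to 74.2% of control (log2 fold change -0.43 ± 0.07 SE, 95% interval -0.58 to -0.28, edgeR adjusted p = 0.00712). Its neighbours on chromosome 5 did not pass the test: Sema3e, 3.32 Mb away, had a log2 fold change of -0.01 (adjusted p = 0.99), Sema3a of 0.14 (0.802) and Sema3d of 0.14 (0.863). The calls of Sema4a and Sema3c held in all 16 alternative fits run, with log2 fold changes of -2.10 to -1.73 and -0.48 to -0.38.

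Sema4g, another transmembrane class 4 semaphorin gene (chromosome 19, 44988743 to 45003397), was at 37.6, 32.3 and 34.6 CPM in controls and at 47.1, 41.8 and 46.3 CPM in Grhl2_cKO. Each Grhl2_cKO library was above each control. Sema4g rose to 129.5% of control (log2 fold change 0.37 ± 0.08 SE, 95% interval 0.19 to 0.55, edgeR adjusted p = 0.034). A fit with a term for sex did not call it (adjusted p = 0.052), nor did fits that left out control 3 (0.141), control 7 (0.0966), Grhl2_cKO 1 (0.112) or Grhl2_cKO 10 (0.115). Its log2 fold change was 0.32 to 0.44 over all 16 alternatives.

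Unc5b encodes a transmembrane netrin receptor that is known in vessels and in neurons (chromosome 10, 60762594 to 60831581). Its level was 47.6, 53.0 and 48.3 CPM in controls and 58.0, 66.6 and 67.6 CPM in Grhl2_cKO. The groups did not overlap. Unc5b rose to 129.0% of control (log2 fold change 0.37 ± 0.08 SE, 95% interval 0.19 to 0.54, edgeR adjusted p = 0.0297). It was not called in fits that left out control 1 (adjusted p = 0.0594), control 7 (0.099), Grhl2_cKO 5 (0.12) or Grhl2_cKO 10 (0.108), and its log2 fold change was 0.33 to 0.43 over the 16 alternatives. None of the 8 endothelial markers passed the test, and their log2 fold changes in the same comparison ran from -0.09 (Tek) to 0.40 (Cldn5). Cldn5 was at 11.4, 13.1 and 9.61 CPM in controls and 15.5, 13.2 and 16.3 CPM in Grhl2_cKO, without overlap (adjusted p = 0.192). The other 6 were at 0.00 for Kdr, 0.01 for Cdh5, 0.05 for Emcn and Esam, 0.07 for Pecam1 and 0.12 for Tie1, all overlapping between groups as Tek did. The part of endothelial RNA in the rise of Unc5b was not tested.

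**Figure D1:**
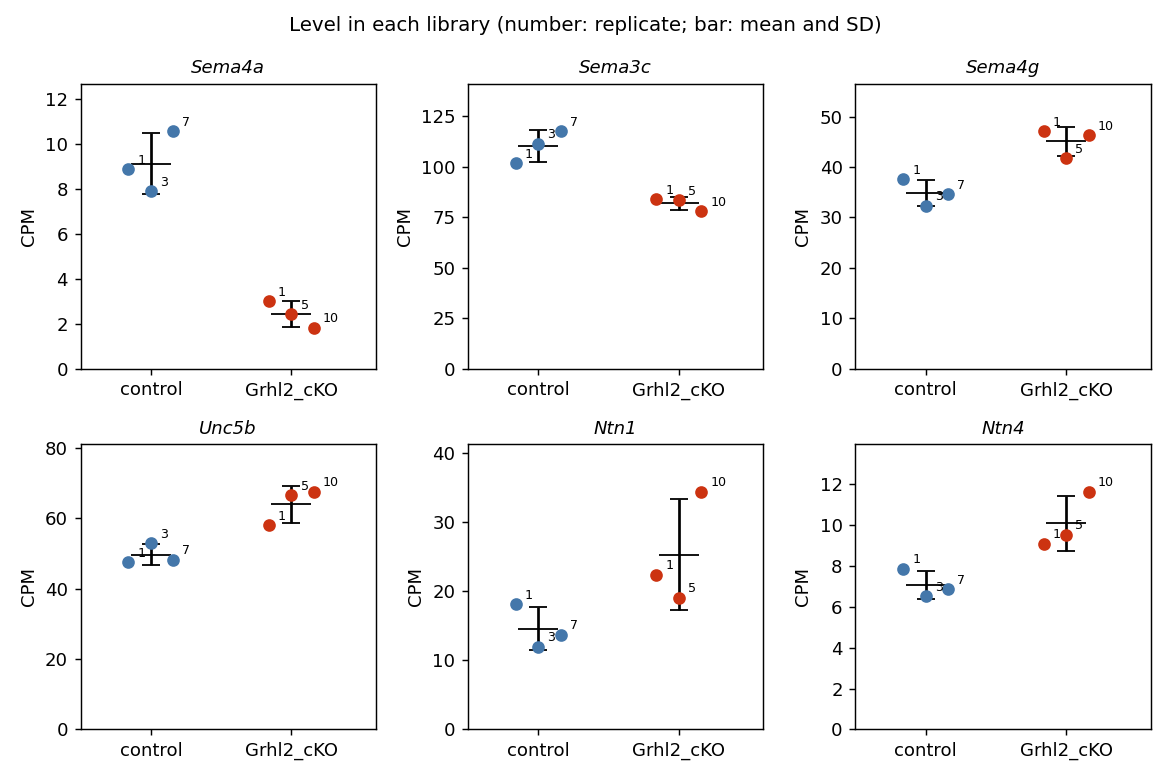
Level in CPM (vertical axes, from 0) of Sema4a, Sema3c, Sema4g, Unc5b, Ntn1 and Ntn4 in each library; points are libraries with their replicate number, and bars are the mean and SD of 3 libraries. The groups do not overlap for any of the 6 genes, as for 18.1% of all genes tested. Ntn1 in Grhl2_cKO replicate 10 (34.3 CPM) stands above the other Grhl2_cKO libraries. Ntn1 and Ntn4 did not pass the test.

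Marker genes of ciliated cells, an airway epithelial cell type, and of neurons also moved between genotypes. The 5 ciliated cell markers summed to 80.4 to 108.8 CPM in controls and 34.6 to 54.3 CPM in Grhl2_cKO, and 4 of the 5 fell. Of the 7 neuronal and glial markers tested, 2 passed the test as higher (Tubb3 and Elavl3), with list sums of 9.35 to 11.8 and 12.8 to 20.9 CPM. None of the 3 mesothelial, 3 tested immune and blood, 4 type 2 and 4 type 1 alveolar markers passed the test. Their sums in controls and in Grhl2_cKO were 37.1 to 74.2 and 17.04 to 54.5 CPM for mesothelium, 12.6 to 37.9 and 14.5 to 37.9 CPM for immune and blood cells, 15248 to 16976 and 14516 to 17897 CPM for type 2 cells, and 625 to 888 and 655 to 832 CPM for type 1 cells. Among the mesothelial markers, Msln was at 33.5% of control without overlap of the groups (edgeR adjusted p = 0.0816). Wt1 (166.3%) and Upk3b (88.0%) overlapped between groups. No marker on these lists was at 0 in all libraries. The part of these cells in the changes of the 4 guidance genes was not tested.

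Across families, levels in control epithelium were compared per length of transcript, as CPM per kilobase. These are levels of bulk EpCAM-positive samples, in which markers of other cells were present. The highest level of the 48 belonged to Plxnb2 at 93.5 ± 3.36 (SD, n = 3) and the lowest to Sema5b at 0.69 ± 0.02, with a median of 11.7. Receptors and ephrins held the upper ranks: after Plxnb2 came Efnb2 (61.2), Nrp1 (61.1), Plxnb1 (59.6), Efna1 (57.7), Ephb4 (53.3) and Epha2 (51.5), whose ranges over the controls overlapped with a neighbour in this order. The highest semaphorin among the 48, Sema3f, was at 30.2 ± 2.64. The counts of all 48 genes together made up 0.513% to 0.539% of each library.

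**Figure D2:**
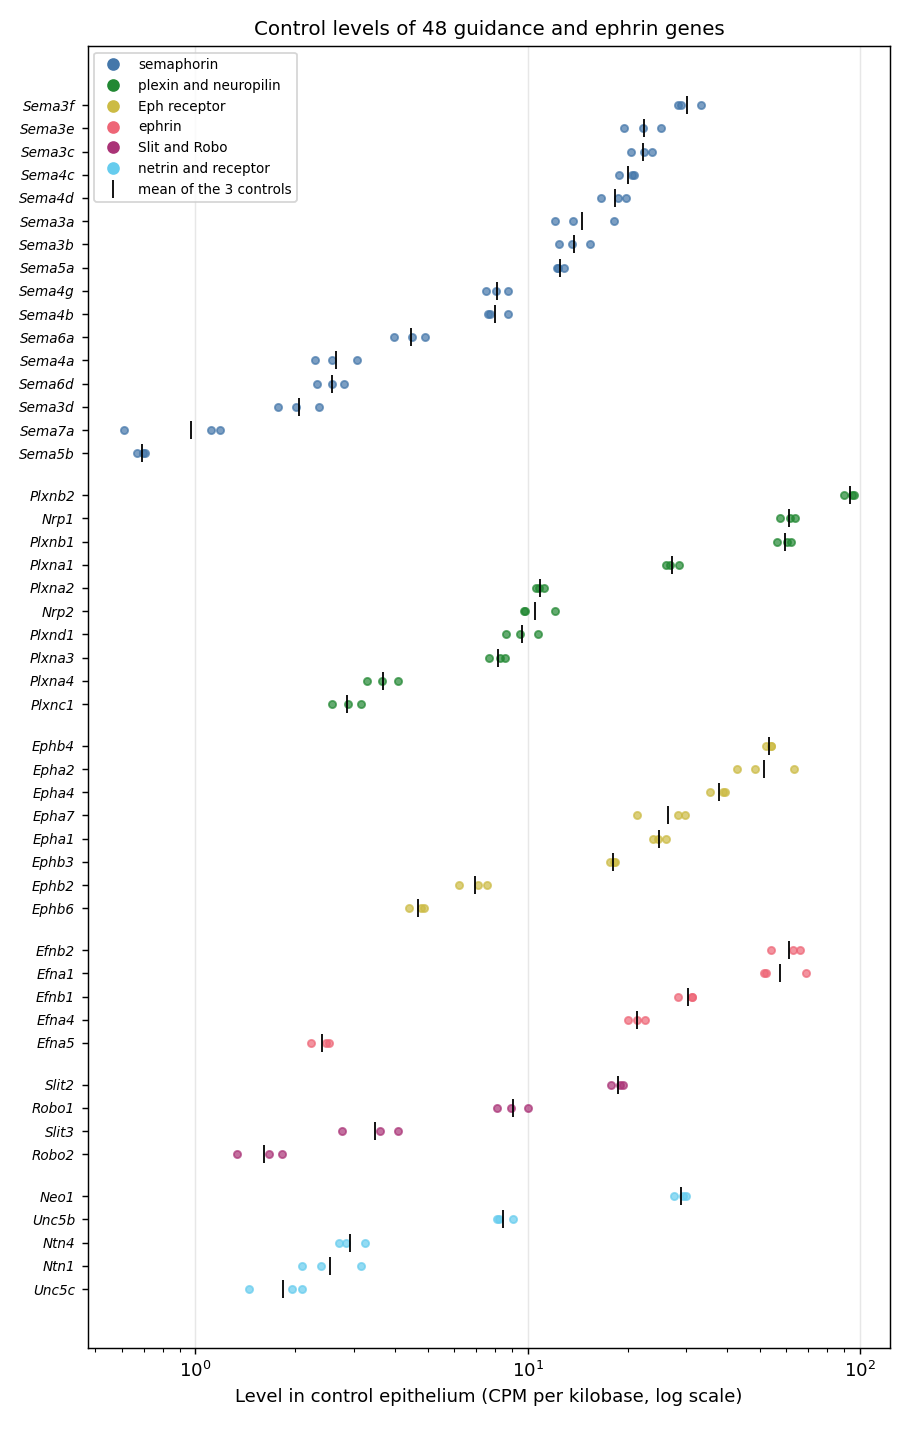
Level of the 48 genes in control epithelium (horizontal axis, CPM per kilobase on a log scale), grouped by family and ordered by mean within it; coloured points are the 3 control libraries and black ticks their mean. Plxnb2 is highest at 93.5 and Sema5b lowest at 0.69.

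Among the semaphorins, the secreted class 3 genes differed widely in control level. Sema3f led at 30.2 CPM per kilobase, followed by Sema3e (22.4), Sema3c (22.2), Sema3a (14.6), Sema3b (13.8) and Sema3d (2.05). Sema3f stood above the range of the next gene. Sema3e and Sema3c were not separated by their spread, and neither were Sema3a and Sema3b. Of the transmembrane genes among the listed members, Sema4c (20.1) and Sema4d (18.4) were highest and overlapped. They were followed by Sema5a (12.5), Sema4g (8.09), Sema4b (8.01), Sema6a (4.46), Sema4a (2.65), Sema6d (2.57) and Sema5b. Ranges overlapped between Sema4g and Sema4b and between Sema4a and Sema6d. Sema7a, whose product is anchored in the membrane by a lipid, was at 0.97. Thus the semaphorin that changed most was among the low-level ones, and Sema3c was among the high-level ones.

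Sema3f, which signals mainly through neuropilin 2, was at 98.6, 96.4 and 112.9 CPM in controls and at 117.0, 120.1 and 117.0 CPM in Grhl2_cKO. The groups did not overlap, with a difference that did not pass the test (log2 fold change 0.20 ± 0.07 SE, edgeR adjusted p = 0.183). Sema5a was the fifth semaphorin whose groups did not overlap, at 133.0 to 138.9 CPM in controls and 122.6 to 132.5 CPM in Grhl2_cKO (adjusted p = 0.64). The other 11 semaphorins overlapped between groups. The largest log2 fold change among the 13 not called was that of Sema7a, 0.28 with an interval of -0.28 to 0.83, and Sema3b followed at 0.22 (-0.01 to 0.46). In the remaining genes the values were -0.14 for Sema5b, 0.06 for Sema4d, -0.07 for Sema4c (7.27% of whose exons a transcript on the opposite strand covers), -0.03 for Sema4b, 0.02 for Sema6d and within 0.01 of 0 for Sema6a. The median over the 16 semaphorins was 0.01, with 8 below 0 and 8 above.

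Plexins and neuropilins are the receptors for these cues, and none of the 10 passed the test. Plxnb2, a receptor for class 4 semaphorins that is known in many epithelia, was at 630.5, 588.3 and 620.5 CPM in controls and at 529.3, 521.7 and 559.4 CPM in Grhl2_cKO. Each Grhl2_cKO library was below each control, and the log2 fold change was -0.19 ± 0.06 SE (87.6% of control, edgeR adjusted p = 0.162). Plxna1 was the other receptor whose groups did not overlap. Its levels were 236.4, 242.4 and 257.8 CPM in controls and 261.6, 266.7 and 278.7 CPM in Grhl2_cKO, all higher than the controls by a small margin (log2 fold change 0.13 ± 0.06 SE, adjusted p = 0.361). An antisense gene covers 10.7% of the Plxna1 exons, and without a stated strand setting the counts of the pair cannot be told apart.

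The other B plexin, Plxnb1, was at 484.7 to 536.0 CPM in controls and 508.0 to 517.5 CPM in Grhl2_cKO, so that the Grhl2_cKO values lay inside the control range (log2 fold change 0.00, interval -0.14 to 0.13). Nrp1, the co-receptor of Sema3a that also binds VEGF, had a log2 fold change of -0.10 (-0.24 to 0.04), and Nrp2 of 0.07 (-0.14 to 0.27). In Plxnc1, the receptor of Sema7a, the value was -0.20 (-0.42 to 0.02). In Plxnd1, the receptor of Sema3e, it was 0.04 (-0.14 to 0.23). In Plxna2, Plxna3 and Plxna4 it was 0.02, 0.07 and 0.06. By control level per kilobase the order was Plxnb2, then Nrp1 and Plxnb1 (the latter pair not separated) and Plxna1 (27.2). Plxna2 (10.9), Nrp2 (10.6) and Plxnd1 (9.61) followed, with overlapping ranges between neighbours. Below them were Plxna3 (8.16), Plxna4 (3.67) and Plxnc1 (2.86). The 2 genes that fell, Sema4a and Sema3c, are ligands, and the receptors measured here had 95% intervals that stayed within 0.5 on the log2 scale (1.41-fold) in each of the 10 cases.

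Among the 8 Eph receptors none passed the test, and only Epha1 had groups that did not overlap. Epha1 was at 78.2 to 85.7 CPM in controls and 72.0 to 76.7 CPM in Grhl2_cKO (log2 fold change -0.12, interval -0.26 to 0.01, adjusted p = 0.444). Zyx, on the opposite strand, covers 6.01% of its exons, which limits this value in the same way as for Plxna1. Ephb4, the receptor of ephrin-B2 and the Eph gene with the highest control level, was at 227.1, 235.4 and 235.2 CPM in controls and 232.5, 246.0 and 236.8 CPM in Grhl2_cKO. These values overlapped, with a log2 fold change of 0.04 ± 0.05 SE (edgeR adjusted p = 0.91). Epha2, an epithelial Eph receptor that binds ephrin-A1, varied more within groups than between them. It reached 250.1 CPM in control replicate 1 and 241.7 CPM in Grhl2_cKO replicate 10, against 167.0 to 189.9 CPM in the other 4 libraries.

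Control levels of the Eph receptors were 53.3 CPM per kilobase for Ephb4 and 51.5 for Epha2 (not separated), 37.8 for Epha4, 26.5 for Epha7 and 25.0 for Epha1 (not separated), 18.1 for Ephb3, 6.95 for Ephb2 and 4.68 for Ephb6, a member without kinase activity. Their log2 fold changes spanned -0.12 (Epha1) to 0.12 (Epha4), and the intervals of Epha4 (-0.02 to 0.26), Epha7 (-0.18 to 0.31), Ephb2 (-0.17 to 0.23), Ephb3 (-0.08 to 0.19) and Ephb6 (-0.31 to 0.10) included 0. Ephb3 was the most even member over the controls, with a coefficient of variation of 1.53%.

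None of the 5 ephrins passed the test. Efnb2, the transmembrane ligand of Ephb4, was at 234.3, 272.1 and 286.4 CPM in controls and at 284.2, 320.4 and 302.2 CPM in Grhl2_cKO. Control replicate 7 overlapped the lowest Grhl2_cKO library, and the log2 fold change was 0.19 ± 0.08 SE (edgeR adjusted p = 0.322). Efna4, a lipid-anchored ephrin, was at 35.9, 31.9 and 34.2 CPM in controls and 38.3, 40.1 and 37.8 CPM in Grhl2_cKO. Its groups did not overlap (log2 fold change 0.19 ± 0.07 SE, adjusted p = 0.272), and an antisense gene covers 10.5% of its exons. Efna5 lay the other way, at 11.7 to 13.3 CPM in controls and 9.82 to 11.3 CPM in Grhl2_cKO, also without overlap (log2 fold change -0.23, interval -0.49 to 0.02, adjusted p = 0.441).

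Efna1, 52.4 kb from Efna4 on chromosome 3, was at 113.5 CPM in control replicate 1 and at 93.0 CPM or less in the other 5 libraries (log2 fold change -0.11). Sema4a lies 0.811 Mb from Efna1 on the same chromosome. Efnb1 had a log2 fold change of 0.10 (-0.05 to 0.26). By control level per kilobase, Efnb2 (61.2) and Efna1 (57.7) were not separated and stood above Efnb1 (30.3), Efna4 (21.3) and Efna5 (2.41). Ligand and receptor of the ephrin-B2 and Ephb4 pair were thus both near the top of the 48 genes, as were those of the ephrin-A1 and Epha2 pair. Whether the genes of a pair were expressed in the same cells of these bulk samples was not tested.

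The 4 Slit and Robo genes overlapped between groups in each case. Slit2, a secreted repellent, was at 155.1, 151.5 and 142.6 CPM in controls and 157.6, 162.1 and 153.8 CPM in Grhl2_cKO (log2 fold change 0.08 ± 0.06 SE, edgeR adjusted p = 0.713). Slit3 had a log2 fold change of -0.19 with an interval of -0.61 to 0.24. The receptors Robo1 and Robo2 had values of 0.19 (-0.02 to 0.40) and 0.09 (-0.19 to 0.37). Control levels per kilobase were 18.7 for Slit2, 9.02 for Robo1, 3.48 for Slit3 and 1.61 for Robo2, each separated from the next.

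In the netrin family, 4 of the 5 genes had groups that did not overlap, all with Grhl2_cKO higher, against the 18.1% of all genes given above. The median log2 fold change of the 5 was 0.37. Only Unc5b, described above, passed the test. Ntn1, the secreted founding netrin, was at 18.1, 12 and 13.7 CPM in controls and at 22.3, 19.1 and 34.3 CPM in Grhl2_cKO. The Grhl2_cKO values were all higher but uneven, with replicate 10 far above replicates 1 and 5. The log2 fold change of Ntn1 was 0.80 ± 0.22 SE (173.8% of control, interval 0.32 to 1.28, edgeR adjusted p = 0.0849), which was the largest positive value among the members. It was 0.51 without Grhl2_cKO replicate 10 (adjusted p = 0.228) and 0.99 without control replicate 1 (0.0327), and DESeq2, which called 4.51% of all genes, also called it (DESeq2 adjusted p = 0.00166).

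Ntn4, a netrin that binds laminins of the basement membrane, was at 7.84, 6.51 and 6.83 CPM in controls and 9.07, 9.50 and 11.6 CPM in Grhl2_cKO. All Grhl2_cKO libraries were above all controls, and the difference did not pass the test (log2 fold change 0.51 ± 0.14 SE, interval 0.19 to 0.83, edgeR adjusted p = 0.0965). Neo1, the gene of the netrin and repulsive guidance receptor neogenin, was at 221.7, 217.7 and 204.2 CPM in controls and 227.6, 222.5 and 223.9 CPM in Grhl2_cKO. These groups were separated by less than 1 CPM (log2 fold change 0.07 ± 0.05 SE, adjusted p = 0.757). Unc5c, a paralog of Unc5b, had the opposite sign. It was at 19.5, 18.2 and 13.5 CPM in controls and 13.3, 11.1 and 13.7 CPM in Grhl2_cKO, with control replicate 7 inside the Grhl2_cKO range (log2 fold change -0.42 ± 0.15 SE, adjusted p = 0.209). Neo1 was highest of the family per kilobase in controls at 29.0, then Unc5b at 8.46, and Ntn4 (2.93), Ntn1 (2.54) and Unc5c (1.83) followed with overlapping ranges between neighbours.

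**Figure D3:**
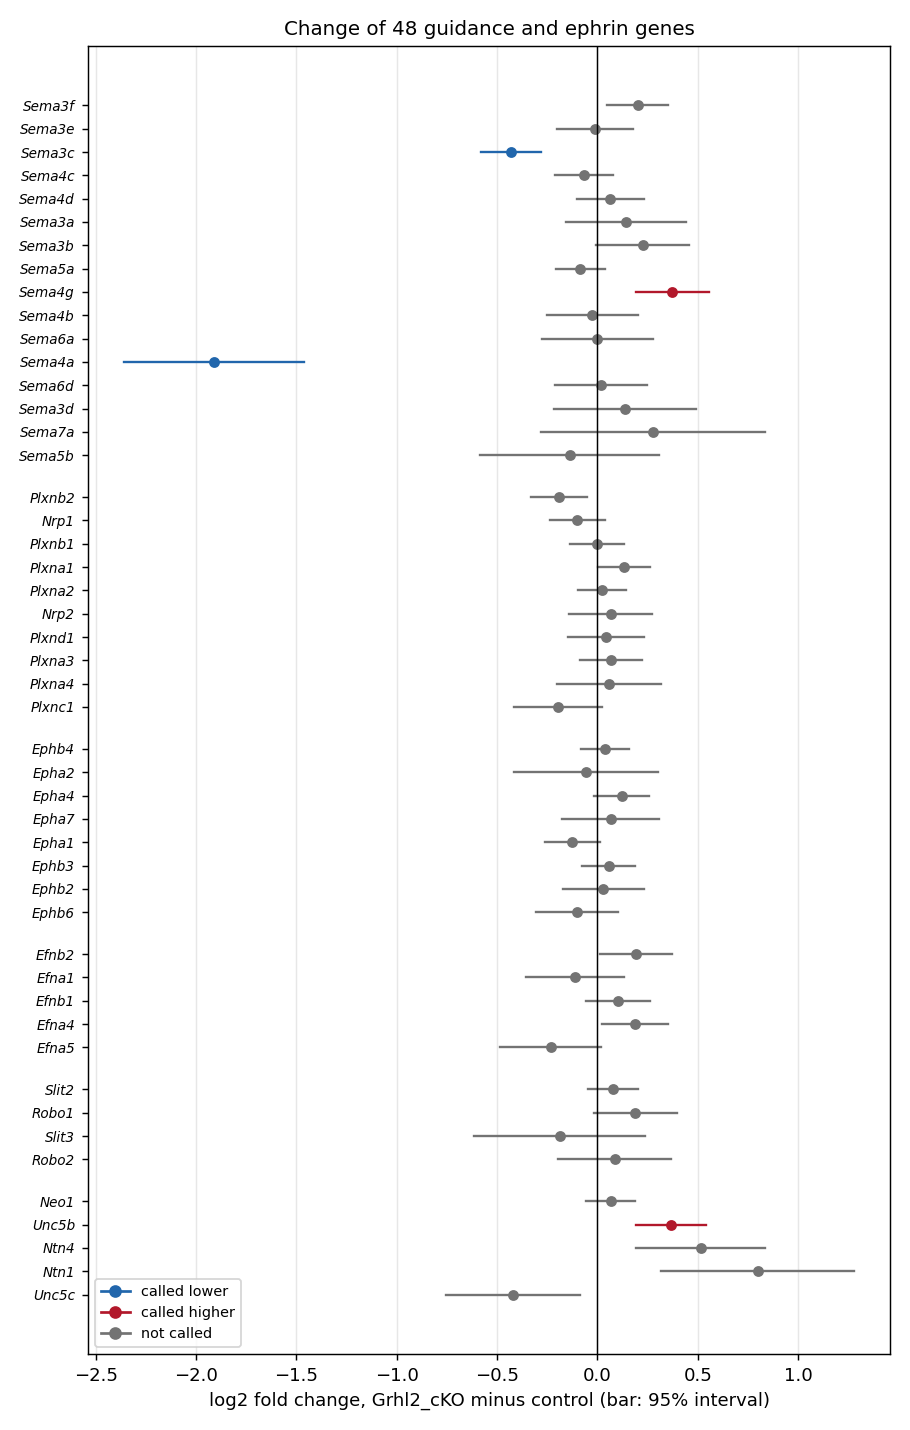
Log2 fold change of each of the 48 genes, Grhl2_cKO minus control (horizontal axis), by family in the order of control level; points are edgeR estimates from 3 libraries per group and bars their 95% intervals. Blue marks the genes called lower (Sema4a and Sema3c), red those called higher (Sema4g and Unc5b) and grey the other 44.

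For the 44 genes that did not pass, each 95% interval is for that gene alone, without adjustment over the 44, and describes the bulk samples. In 38 of them the 95% interval lay within 0.5 of 0 on the log2 scale, and in 43 within 1. The 6 whose interval reached past 0.5 were Sema5b, Sema7a, Slit3, Ntn1, Ntn4 and Unc5c, each at 3.48 CPM per kilobase or less in controls. No plexin, neuropilin, Eph receptor or ephrin had an interval that reached past 0.5.

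Individual libraries contributed unevenly. Control replicate 1 was the highest of its group for 29 of the 48 members and the highest of all 6 libraries for 14, and Grhl2_cKO replicate 10 was the highest of all 6 for 13. The coefficient of variation over the 3 controls had a median of 8.68% and reached 32.3% for Sema7a, at 3.88, 3.65 and 2.0 CPM.

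**Figure D4:**
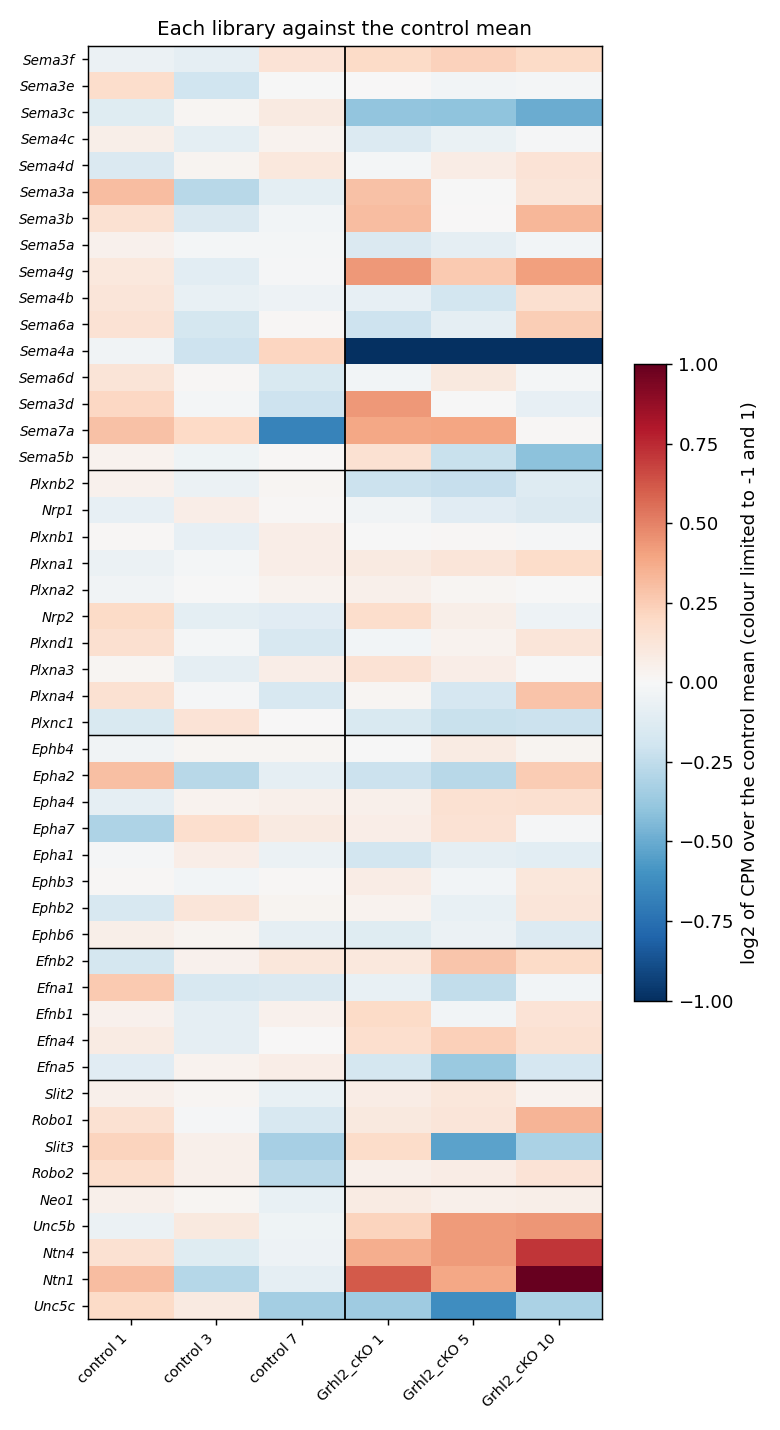
Log2 ratio of the CPM of each library (columns) to the mean of the 3 controls for the 48 genes (rows, by family), with colour limited to -1 and 1. Sema4a, Sema3c and Unc5c are blue in all 3 Grhl2_cKO libraries, Sema4g, Unc5b, Ntn1 and Ntn4 are red in all 3, and most other genes are pale. Of these named genes, Unc5c, Ntn1 and Ntn4 were not called. Unc5c is also blue in control replicate 7 (13.5 CPM), which lies inside its Grhl2_cKO range.

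A list of 73 further genes of the same pathways was examined: 29 other members of these ligand and receptor families and 44 intracellular effectors. Of these, 65 passed the filter and 4 passed the test (6.15%, against 3.62% of all genes), all 4 higher in Grhl2_cKO. The 4 were Sema4f, Ntn3, Dpysl4 and Mical1. The 8 that were not tested were Epha6, Epha8, Epha10, Slit1, Robo3, Ntng1, Ntng2 and Dscam, which had at most 10 counts in any library. Among the 65, 25 had a log2 fold change below 0 and 40 above, with a median of 0.03.

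Sema4f, a transmembrane semaphorin gene, was at 176.3, 188.5 and 178.3 CPM in controls and 217.8, 223.0 and 229.3 CPM in Grhl2_cKO. The groups did not overlap, and it rose by a log2 fold change of 0.30 ± 0.05 SE (edgeR adjusted p = 0.0149). At 36.1 CPM per kilobase in controls it was above Sema3f. It was not called when control 7 (adjusted p = 0.0621), Grhl2_cKO 5 (0.0605) or Grhl2_cKO 10 (0.0539) was left out. Ntn3, another netrin gene, was at 10.1, 9.06 and 9.54 CPM in controls and 13.7, 14.1 and 12.7 CPM in Grhl2_cKO, without overlap. It rose by a log2 fold change of 0.50 ± 0.11 SE (adjusted p = 0.0357). Fits with a term for sex (0.0568) or without control 3 (0.146), control 7 (0.102), Grhl2_cKO 1 (0.0936), Grhl2_cKO 5 (0.143) or Grhl2_cKO 10 (0.0715) did not call it. Dcc, the attractive netrin receptor, was at 0.58 to 0.73 CPM in controls and 0.96 to 1.48 CPM in Grhl2_cKO, and did not pass (log2 fold change 0.80 ± 0.33 SE, adjusted p = 0.301). It was singled out after its values were seen.

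Dpysl4, a member of the collapsin response mediator family that acts downstream of class 3 semaphorins, was at 2.91, 1.89 and 2.84 CPM in controls and 5.17, 5.33 and 7.63 CPM in Grhl2_cKO. It rose 2.39-fold (log2 fold change 1.26 ± 0.23 SE, edgeR adjusted p = 0.0155). Fits that left out control 3 (0.0683) or Grhl2_cKO 10 (0.0603) did not call it. Mical1, an oxidoreductase that disassembles actin downstream of plexins, was at 173.1, 202.5 and 201.7 CPM in controls and 226.6, 249.8 and 257.3 CPM in Grhl2_cKO. All 3 Grhl2_cKO libraries were above the controls (log2 fold change 0.35 ± 0.08 SE, adjusted p = 0.0363). Mical1 was not called with a term for sex (0.0597) or when control 1 (0.059), control 3 (0.0741), control 7 (0.0621), Grhl2_cKO 5 (0.129) or Grhl2_cKO 10 (0.115) was left out. The neuronal marker sums given above were higher in Grhl2_cKO, and their part in the changes of Dpysl4 and Ntn3 was not tested.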

How the data were processed

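Bulk RNA was sequenced from 6 samples of EpCAM-positive cells on a HiSeq instrument, from stranded libraries of polyadenylated RNA, per the labels' protocols. A single table was deposited by the authors, with raw counts and a length for each Entrez gene. Reads were demultiplexed with bcl2fastq 2.17.1.14 and counted with featureCounts on mm10, with edgeR 3.16.5 and limma 3.30.12 named, per the submitters' processing notes. The aligner, the strand setting and the handling of multi-mapping reads were not given in the sources used here. Symbols were matched for 25275 identifiers (92.99%), and counts of near-identical paralogs are uncertain.

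The deposited counts of all genes were tested here with edgeR 4.0.16 in R 4.3.3 (TMM scaling, filterByExpr with a minimum count of 10 and a minimum total of 15, adjusted-deviance quasi-likelihood F test, no covariate), with Benjamini-Hochberg adjustment over 14842 genes and a threshold of 0.05. The prior count was 0.125. Standard errors (SE) were taken as |log2 fold change| divided by the root of the F statistic. CPM uses TMM-scaled library sizes, and CPM per kilobase uses the deposited length. The test was checked on simulated counts. No pair of libraries agreed within sampling noise (chi-square per degree of freedom 7.72 to 12.9).

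The members and lists were chosen with earlier results of these data known. All 48 members are accounted for. Values in every library are given for members that passed, the 8 others with the smallest p and the member of each family with the highest control level, and called genes of the further list are named.

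The test was repeated with total-count, RLE or upper-quartile scaling, without the filter (genes with 1 count or more), with 1 CPM required in 3 libraries, by limma-voom (limma 3.58.1) or DESeq2 1.42.0, with a term for sex, with robust or legacy quasi-likelihood (the legacy fit chosen after seeing the data), and with each library left out in turn. One further marker list was examined and is not reported here.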

Additional observations from a re-analysis of the deposited data

How the results depend on the processing

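Sema4a and Sema3c kept their calls in all 16 alternatives. With a term for sex, 1 member was called higher in place of 2, and 2 of the further pathway genes in place of 4. Leaving out 1 library gave 2 to 4 members called (2 without control 7 and without Grhl2_cKO 10), 0 to 2 called higher (0 in those same fits) and 0 to 3 further pathway genes called (0 without Grhl2_cKO 10). Fewer samples were fitted in these cases, and the cause of the loss with the term for sex was not tested. Of 832 values for single genes, 770 kept direction and call, 26 lost the call, 2 gained one and 34 changed sign. The 34 belong to 13 genes, none called, with reported log2 fold changes of at most 0.14 in size.

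Sign changes outside the fits that left out a library were small. Sema3e was at 0.00374 with upper-quartile scaling. Sema6a was at 0.006331 with RLE scaling, 0.01389 with upper-quartile scaling, 0.003353 with no filter, 0.007201 with DESeq2 and 0.0001403 with legacy quasi-likelihood. Plxnb1 was at 0.005926, 0.01362, 0.002596 and 0.006001 under the first 4 of these. Leaving out 1 library at a time, log2 fold changes ran from -0.03926 to 0.2585 for Sema3d, -0.1029 to 0.09573 for Sema3e, -0.1246 to 0.04861 for Sema4b, -0.1408 to 0.09027 for Sema6a and -0.05101 to 0.09403 for Sema6d. They ran from -0.065 to 0.1591 for Plxna4, -0.04116 to 0.03101 for Plxnb1, -0.03007 to 0.1409 for Plxnd1, -0.2422 to 0.131 for Epha2, -0.05741 to 0.1604 for Epha7 and -0.03547 to 0.0934 for Ephb2. For Efna1 and Robo2 the ranges were -0.1851 to 0.04748 and -0.03022 to 0.1896.

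With 3 libraries per group, differences of the low-level members are the least bounded. No paired analysis was run. The groups share only replicate number 1, and the replicate numbers are not said to mark litters or pairs.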
